A study of Mus musculus with 2 samples.

Results

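Urokinase (Plau), its receptor (Plaur) and the serpin Serpinb2 were examined together with 3 matrix metalloproteinases (Mmp12, Mmp13 and Mmp14) and 3 tissue inhibitors of metalloproteinases (Timp1, Timp2 and Timp3) in mouse bone marrow-derived macrophages. The genes were taken by symbol from the deposited expression table, which held all 9 of them, each once, among 15576 genes. Messenger RNA was sequenced from wild-type cells not given the bile acid (NC) and after 24 h with 100 µM of deoxycholic acid (DCA). Deoxycholic acid is a secondary bile acid made by gut bacteria. There was 1 library per group, so the differences below have no replicate error beside them and no statistical test was run. The sources used here do not give the strain, sex and age of the mice or the vehicle of the NC cells. The labels also leave unclear whether the cells were collected at the end of the treatment or a day later.

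Urokinase is a secreted serine protease that cuts plasminogen into plasmin, a broad protease that dissolves fibrin and activates other proteases at the cell surface. Its receptor holds it there through a lipid anchor, and serpins such as the product of Serpinb2 inactivate it. Matrix metalloproteinases are zinc enzymes that cut collagen, elastin and other matrix proteins, and TIMP proteins block their active site. Macrophages use both systems to move through tissue and to remodel it.

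Values are given on 3 scales. FPKM is the deposited value, reads per kilobase of gene and 1e6 reads. The authors' FPKM kept the trace of whole reads, which were rebuilt with read totals of 56.57 M for DCA and 59.21 M for NC (M for 1e6 reads), and for all 9 genes both libraries gave whole numbers of reads. The ratio of these reads, DCA over NC and scaled to the totals, has a 95% interval beside it (exact, Clopper-Pearson), which covers counting error only. Levels of different members are compared only as reads per kilobase of merged exons and 1e6 reads, called the length-scaled level here. The reason is that the gene lengths behind the deposited FPKM are too large for genes with many transcripts. Ranges and sums over marker genes are in deposited FPKM and carry that limit.

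The cells carried the macrophage label's markers. All 12 macrophage markers had a mean FPKM of at least 1, from Mertk at 6.24 in DCA and 6.94 in NC to Lyz2 at 9803 and 9669. Markers of other marrow cells were present too, and their part in the results was not tested. The 13 neutrophil markers summed to 4173 FPKM in DCA and 3521 in NC, and all 13 were higher in DCA. The 8 B-cell markers summed to 168.4 and 136.7 FPKM. Stromal cells, a common source of Timp and collagenase transcripts, left little trace. None of the 11 stromal markers in the table reached a mean FPKM of 1, they summed to 0.540 FPKM in DCA and 0.346 in NC, and Dcn and Pdgfra were listed at 0 in both. Of the 4 tested osteoclast markers, 2 were higher and 2 lower in DCA, with a median ratio of 1.015. They ran from Ctsk at 0.875 (0.803 to 0.954) to Acp5 at 1.061 (0.965 to 1.167). Below the filter, Dcstamp was at 0.635 (0.410 to 0.971) on 61 NC and 37 DCA reads. Ocstamp was at 0.523 (0.268 to 0.982) on 32 NC and 16 DCA reads, and Calcr and Oscar were listed at 0. The 3 tested endothelial markers had ratios of 0.787 (0.716 to 0.865) for Kdr, 1.078 (1.022 to 1.137) for Pecam1 and 1.096 (1.05 to 1.143) for Vwf. Endothelial Cdh5, below the filter, was at 0.676 (0.535 to 0.852) on 192 NC and 124 DCA reads. Ctsk, Acp5, Dcstamp, Ocstamp, Kdr, Pecam1 and Cdh5 were named here after their values were seen. Fewer cells of a type and less RNA per cell cannot be told apart in bulk libraries.

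Windows of 250 bases before the transcript starts were searched for motifs that members share, and some windows include annotated exons of the same gene. They come from RefSeq on GRCm38.p6, which matched 8 of the 9 genes, all except Plau, in 10 windows. Over these, 5 windows of 4 genes hold a match to the AP-1 motif TGANTCA, a class of site known from urokinase receptor and collagenase promoters, and the upstream window of Mmp12 and those of Mmp14 and the 3 TIMP genes do not. The 6 windows shown are those of Mmp14 and Timp1, without a match, and 1 with a match for each of the 4 genes. Capitals mark matches to that motif, to the PEA3 motif AGGAAG, to the GC box GGGCGG and to TATAAA. The first 3 were searched on both strands and the last on the gene's strand. Each sequence runs 5′ to 3′ on the plus strand, which is the strand of these genes. They are Plaur (chr7:24462233-24462482), Serpinb2 (chr1:107511173-107511422), Mmp12 before the downstream of its 2 annotated starts (chr9:7347124-7347373), Mmp13 (chr9:7272264-7272513), Mmp14 (chr14:54431348-54431597) and Timp1 (chrX:20869916-20870165).
Plaur: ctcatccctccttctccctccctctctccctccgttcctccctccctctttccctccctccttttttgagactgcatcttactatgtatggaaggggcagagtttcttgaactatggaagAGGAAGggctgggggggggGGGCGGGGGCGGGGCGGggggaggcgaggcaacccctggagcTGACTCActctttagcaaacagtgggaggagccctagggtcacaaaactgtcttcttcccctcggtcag
Serpinb2: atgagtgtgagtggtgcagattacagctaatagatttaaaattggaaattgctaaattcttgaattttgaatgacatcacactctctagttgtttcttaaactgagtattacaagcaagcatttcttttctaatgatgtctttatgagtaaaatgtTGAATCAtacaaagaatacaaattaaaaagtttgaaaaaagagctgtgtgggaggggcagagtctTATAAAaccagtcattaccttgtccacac
Mmp12: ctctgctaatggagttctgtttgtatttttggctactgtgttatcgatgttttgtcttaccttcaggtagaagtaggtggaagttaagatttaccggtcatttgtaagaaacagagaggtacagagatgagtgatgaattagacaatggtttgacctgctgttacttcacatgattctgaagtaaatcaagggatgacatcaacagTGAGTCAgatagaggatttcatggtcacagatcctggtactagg
Mmp13: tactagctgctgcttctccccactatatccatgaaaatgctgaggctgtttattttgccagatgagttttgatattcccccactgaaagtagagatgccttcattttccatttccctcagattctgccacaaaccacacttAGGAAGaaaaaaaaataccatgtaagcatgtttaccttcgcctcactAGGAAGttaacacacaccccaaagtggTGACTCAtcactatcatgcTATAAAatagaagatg
Mmp14: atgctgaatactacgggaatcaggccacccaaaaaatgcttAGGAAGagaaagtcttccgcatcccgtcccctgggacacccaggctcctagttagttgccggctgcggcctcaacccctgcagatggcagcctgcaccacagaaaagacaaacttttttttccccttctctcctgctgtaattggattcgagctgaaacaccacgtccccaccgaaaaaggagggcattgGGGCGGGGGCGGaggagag
Timp1: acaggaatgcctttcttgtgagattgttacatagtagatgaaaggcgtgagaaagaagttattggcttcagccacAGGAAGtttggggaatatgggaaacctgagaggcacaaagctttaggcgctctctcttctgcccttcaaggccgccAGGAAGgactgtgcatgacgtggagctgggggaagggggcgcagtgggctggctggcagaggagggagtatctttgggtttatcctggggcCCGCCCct

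The AP-1 match of Mmp13 began 35 bases before the start and read TGACTCA, as did that of Plaur at 69 bases. The match of Serpinb2 read TGAATCA and began 94 bases before its upstream start, and that of Mmp12 read TGAGTCA at 44 bases. Of all 32851 windows of this length, 6.75% held the AP-1 motif, 29.5% the PEA3 motif, 32.7% the GC box and 7.59% TATAAA. The 3 TIMP windows held no AP-1 match, and each held 1 GC box. The window of Timp2 was the richest in G and C, at 68.0%, but 203 of its 250 bases lie in annotated Timp2 exons. The Timp2 window thus holds little sequence from outside the annotated exons. The window of the upstream Serpinb2 start was the poorest, at 32.4%. Annotated exons of the same gene also cover 69 bases of the downstream Serpinb2 window, 40 of the Timp3 window and 16 of the upstream Mmp12 window. The 2 windows of Serpinb2 overlap and share their AP-1 match, and the 3 GC boxes of Plaur lie side by side, the latter 2 sharing 1 base. These matches describe the letters and not binding.

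**Figure D1:**
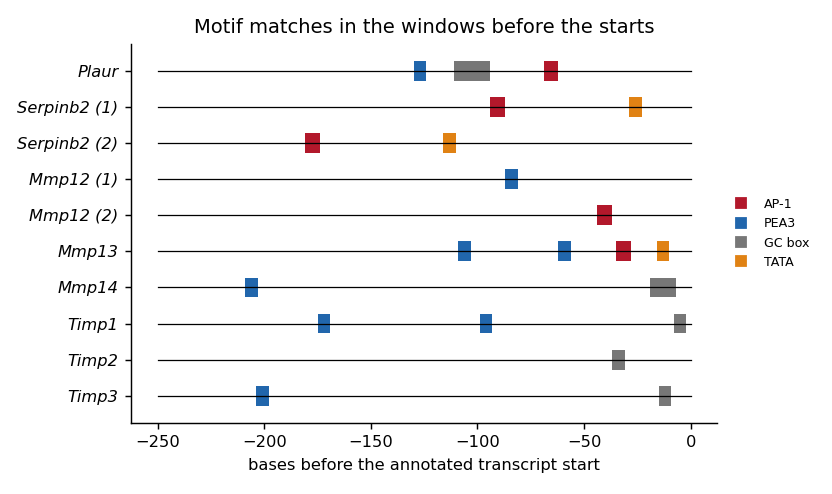
Matches to 4 motifs in the 250 bases before each annotated transcript start, for 8 genes and 10 windows, with distance to the start in bases on the horizontal axis. Coloured blocks stand for AP-1, PEA3, GC box and TATA matches. AP-1 blocks appear in Plaur, Serpinb2, Mmp12 (the downstream start) and Mmp13, and in no TIMP window.

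The members spanned a wide range of levels, from abundant to barely detected. Plau had the highest length-scaled level, 62.0 in DCA and 77.6 in NC, followed by Timp2 at 44.0 and 40.5 and Plaur at 35.6 and 34.1. Mmp12 stood at 11.8 in both libraries. Mmp14 was at 3.97 and 3.74, and Serpinb2 at 1.69 and 1.64. The lowest were Timp1 at 0.737 and 0.913, Mmp13 at 0.628 and 0.872, and Timp3 at 0.0716 and 0.0373. The order of the 9 genes was the same in both libraries. Of the neighbours in this order, only Timp1 and Mmp13 had overlapping exact 95% Poisson intervals of their levels. In DCA these ran from 0.519 to 1.015 for Timp1 and from 0.508 to 0.768 for Mmp13, and in NC from 0.673 to 1.21 and from 0.733 to 1.03. These 2 and Timp3 rested on 18 to 138 reads per library.

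**Figure D2:**
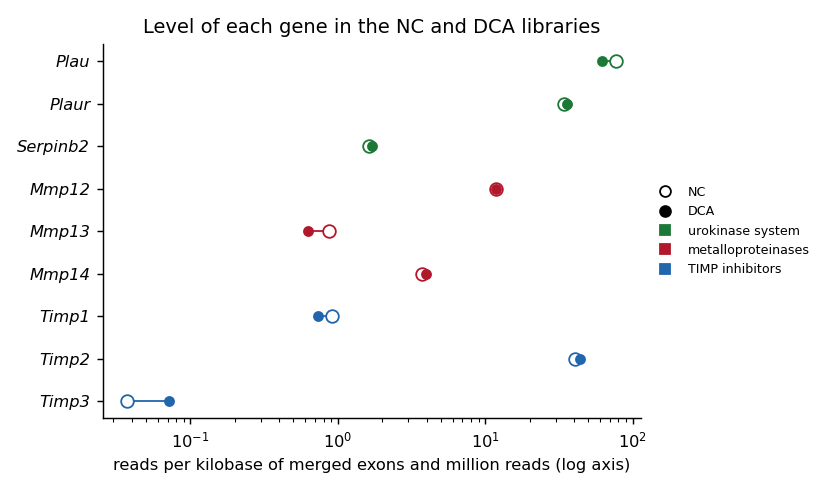
Length-scaled level of each gene on a log axis, in reads per kilobase of merged exons and 1e6 reads, with open circles for the NC library and filled circles for the DCA library. Plau is the highest and moves left in DCA, from 77.6 to 62.0, while Timp3 is the lowest, with 0.0373 in NC and 0.0716 in DCA.

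Plau was lower in DCA, and it was the 1 tested member at least 1.2-fold apart. Its FPKM was 48.6 in NC and 38.8 in DCA, on 10869 and 8302 reads. The ratio was 0.799 (95% interval 0.777 to 0.823), a difference of -0.32 in log2(FPKM + 1). Plau lies on chromosome 14 (GRCm38, 20836660 to 20843385, plus strand, ENSMUSG00000021822), and none of its annotated exons overlaps another gene. Among the 9656 genes whose mean FPKM was 1 or more, which are called tested here, its difference ranked 47 from the lowest. Among 2682 other genes with a read sum within 2-fold of its own, 2 had a lower ratio, Ube3a at 0.768 and Tulp4 at 0.774, and both have exons that overlap another gene. These 2 were named after their values were seen. The 12 macrophage markers had ratios between 0.900 and 1.014, all above that of Plau.

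Plaur, the receptor, did not share this difference. It stood at 13.1 FPKM in NC and 13.7 in DCA, on 5286 and 5263 reads, which is a ratio of 1.042 (1.003 to 1.083). The lower bound of the interval lies just above equality. Within each library, there were 1.58 Plau reads per Plaur read in DCA and 2.06 in NC. That quotient does not depend on the read totals, and it was 0.767 times as large in DCA (0.731 to 0.805). Plaur lies on chromosome 7 (24462484 to 24475968, plus strand).

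Serpinb2, a serpin that inhibits urokinase and is mostly kept inside the cell, did not differ beyond its counting error. It stood at 0.760 FPKM in NC and 0.784 in DCA, on 228 and 225 reads. The ratio was 1.03 with an interval of 0.855 to 1.25, so no difference could be detected at this depth. Its exons share 291 of 2349 bases (12.4%) with Serpinb10 on the same strand, which is annotated as a polymorphic pseudogene and has no value here. Reads of the 3 urokinase genes summed to 16383 in NC and 13790 in DCA, for a ratio of 0.881 (0.861 to 0.901), with Plau alone on the lower side.

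Of the metalloproteinases, the abundant Mmp12 differed by less than its counting error. Mmp12, macrophage elastase, stood at 6.30 FPKM in NC and 6.28 in DCA, on 5057 and 4813 reads, which is a ratio of 0.996 (0.957 to 1.036). Mmp12 made up 71.9% of the summed length-scaled level of the 3 metalloproteinases in either library. Of its 7237 exon bases, 157 (2.17%) also belong to Mmp1b on the opposite strand, and the sources used here do not say whether counting used the strand.

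Mmp14, a membrane-anchored metalloproteinase that cuts collagen and activates the gelatinase Mmp2, stood at 2.24 FPKM in NC and 2.38 in DCA, on 1321 and 1340 reads. Its ratio was 1.06 (0.983 to 1.15), and the interval includes equality. Mmp14 lies on chromosome 14 (54431612 to 54445364, plus strand), on the same chromosome as Plau.

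Mmp13, collagenase 3, was lower in DCA on few reads. It stood at 0.872 FPKM in NC and 0.628 in DCA, on 138 and 95 reads, which is a ratio of 0.720 (0.549 to 0.942). The interval lies below equality, but 12.6% of the 1139 other genes of like read sum had a still lower ratio. Mmp13 (7272514 to 7283331) and Mmp12 (7344381 to 7369499) both lie on the plus strand of chromosome 9. There were 50.7 Mmp12 reads per Mmp13 read in DCA and 36.6 in NC, a quotient 1.38 times as large (1.05 to 1.82).

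Timp2 was the inhibitor with nearly all of the reads, and it was slightly higher in DCA. It stood at 35.6 FPKM in NC and 38.7 in DCA, on 9340 and 9702 reads, which is a ratio of 1.087 (1.057 to 1.119). Timp2, which inhibits metalloproteinases and also takes part in the activation of Mmp2 by Mmp14, held 98.2% of the summed TIMP level in DCA and 97.7% in NC. Among 2702 other genes of like read sum, 5.74% had a higher ratio. The gene spans chromosome 11 from 118301069 to 118355740 on the minus strand and holds Cep295nl inside its span on the same strand, with no shared exon bases. Cep295nl had 41 NC and 24 DCA reads. Mmp14 reads per Timp2 read were 0.138 in DCA and 0.141 in NC, and the interval of their quotient, 0.900 to 1.06, includes equality.

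Timp1 and Timp3 rested on few reads. Timp1, a soluble, inducible inhibitor, stood at 0.472 FPKM in NC and 0.381 in DCA, on 48 and 37 reads, which is a ratio of 0.807 (0.511 to 1.26), so no difference could be detected at this depth. It lies inside the span of Syn1, on the opposite strand and with no shared exon bases. Syn1 stood at 539 NC and 608 DCA reads, for a ratio of 1.18 (1.05 to 1.33).

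Timp3, an inhibitor bound to the matrix that also blocks the sheddase Adam17, rested on 18 NC and 33 DCA reads. The ratio was 1.92 (1.05 to 3.62), and 19.0% of the 1097 other genes of like read sum had a higher one. Of its 8144 exon bases, 1733 (21.3%) are shared with Syn3 on the opposite strand, and Syn3 had 19 NC and 21 DCA reads. Timp3 stood at 0.0640 FPKM in DCA and 0.0334 in NC. The 11 stromal markers summed to 0.540 FPKM in DCA and 0.346 in NC, but they did not all go the same way. Pdgfrb, the highest of them, stood at 0.302 in DCA and 0.167 in NC, and Col1a1 and Col3a1 were lower in DCA. Col1a1 and Col3a1 were named after their values were seen. The part of other cells in the Timp3 reads was not tested.

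**Figure D3:**
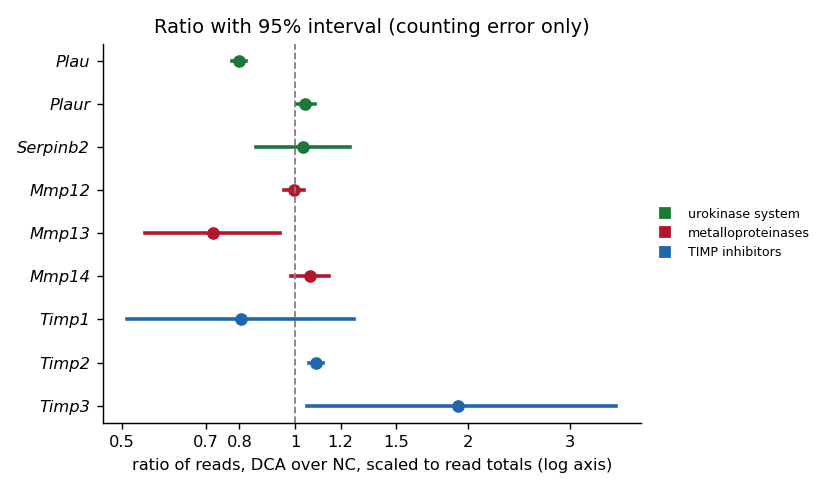
Ratio of reads of each gene, DCA over NC, on a log axis, with bars for the exact 95% interval of counting error and a dashed line at equality. Plau (0.799) and Timp2 (1.087) have short bars away from the line, while Mmp13, Timp1 and Timp3, on 18 to 138 reads per library, have wide ones.

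Read over the whole set, 5 members passed the filter of a mean FPKM of at least 1 (Plau, Plaur, Mmp12, Mmp14 and Timp2), and the remaining 4 were not counted against the size limits. Of the 5, 1 was at least 1.2-fold apart on log2(FPKM + 1), namely Plau on the lower side, where 0.715% of all tested genes were. None was at least 1.2-fold higher, against 2.11% of all tested genes, and none was at least 1.5-fold apart in either direction, against 0.497%. The median difference of the 5 was 0.0553 and that of all tested genes 0.0067. The members' median was 0.0203 with all 9 genes in it, 0.0252 with a mean FPKM of at least 5 and 0.0273 with a pseudocount of 5. The counting interval excluded equality for 5 of the 9 members, against 42.7% of the 14426 genes with rebuilt reads. It lay above equality for Plaur, Timp2 and Timp3, as for 23.9% of all genes, and below it for Plau and Mmp13, as for 18.9%. The share of members is near the background.

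**Figure D4:**
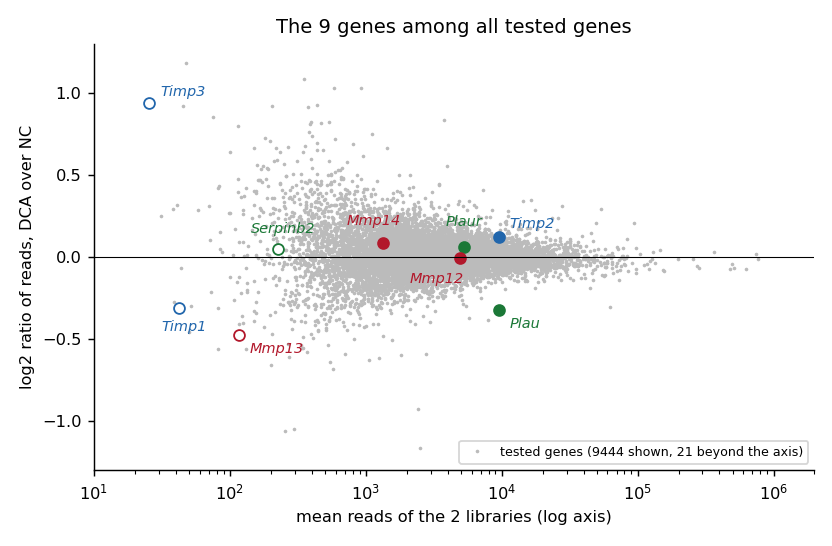
Log2 ratio of reads, DCA over NC, against the mean reads of the libraries on a log axis. Grey points are 9444 tested genes and 21 more lie beyond the vertical axis. Filled circles are members with a mean FPKM of at least 1 and open circles those below it. Plau lies under the grey cloud at its depth, while Mmp12, Mmp14 and Plaur lie inside it.

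No other tested gene of the plasminogen system was as far apart as Plau. Counts of higher and lower genes are to be read beside all tested genes, whose median ratio was 1.006, with 53.5% of them higher in DCA. The list of 24 genes had 21 in the table and 13 tested, of which 5 were higher and 8 lower in DCA and none was 1.2-fold apart, with a median ratio of 0.984. Lrp1, the endocytic receptor that clears urokinase bound to its inhibitors, stood at 100.4 FPKM in NC and 94.8 in DCA, for a ratio of 0.945 (0.938 to 0.952). St14, the membrane serine protease matriptase, was at 0.885 (0.815 to 0.962) and the integrin subunit gene Itgav at 0.927 (0.902 to 0.953). On the other side, Hgf, a growth factor that urokinase-like proteases can activate, was at 1.13 (1.04 to 1.22), Serpinb8 at 1.07 (1.01 to 1.13) and S100a10, which with annexin A2 binds plasminogen, at 1.029 (1.001 to 1.058). Plg, the gene of plasminogen, a liver product, was listed at 0 in both libraries. Plg was named after its values were seen.

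Of the 20 other metalloproteinase genes looked for, 16 were in the table and 5 tested, and 4 of the 5 were higher in DCA. The 1 tested gene at least 1.2-fold apart was Mmp25, a membrane-anchored enzyme of leukocytes, at 1.32 (1.23 to 1.41) on 1575 NC and 1981 DCA reads. Mmp9, gelatinase B, stood at 80.8 FPKM in NC and 90.6 in DCA, for a ratio of 1.12 (1.103 to 1.142), Mmp19 was at 1.055 (0.991 to 1.12) and Mmp27 at 0.857 (0.771 to 0.952). Neutrophils carry Mmp9 and Mmp25, and the 13 neutrophil markers had a median ratio of 1.18 in the same libraries, with a range of 1.04 to 1.39. Mmp8, neutrophil collagenase, stands in both lists and had a ratio of 1.038 (1.018 to 1.058). The part of neutrophils in the Mmp9 and Mmp25 values was not tested.

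The lists of other proteases of the cell surface and the matrix lay slightly on the lower side. Of 7 tested ADAM and ADAMTS genes, 6 were lower in DCA, with a median ratio of 0.951. Adam8 and Adam9, which shed membrane proteins, were at 0.924 (0.913 to 0.934) and 0.934 (0.909 to 0.959), and Adam15 at 0.944 (0.924 to 0.965), while Adam19 was at 1.145 (1.07 to 1.22). All 7 cathepsins were lower, with a median ratio of 0.953. The lowest were the collagen-degrading Ctsk at 0.875 (0.803 to 0.954), Ctsl at 0.907 (0.893 to 0.921) and Ctsb at 0.949 (0.946 to 0.952). The intervals of Ctsh, at 0.997 (0.974 to 1.021), and Adamts10, at 0.994 (0.953 to 1.037), include equality. Ctsh and Adamts10 were named after their values were seen. No tested gene of either list was 1.2-fold apart on log2(FPKM + 1). The 12 macrophage markers had a median ratio of 0.952 in the same libraries, close to the medians of both lists with all tested genes in them. Without genes with overlapping exons, the cathepsin median on log2(FPKM + 1) moved from -0.0697 to -0.013. The ADAM median stayed at -0.0689.

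Other controls of these proteases and their substrates were mixed. Of 5 tested control genes, Pcsk7 was at 0.929 (0.884 to 0.976), Furin, a convertase that activates Mmp14, at 0.949 (0.922 to 0.976), and Bsg, the metalloproteinase inducer basigin, at 0.956 (0.930 to 0.982). Cst3, a cathepsin inhibitor, was at 1.049 (1.029 to 1.069), and Lcn2 at 1.12 (1.098 to 1.152). Among the 5 tested matrix genes, Thbs1, thrombospondin, stood highest at 1.154 (1.14 to 1.17), followed by Ecm1 at 1.029 (0.979 to 1.082), and Lamc1, a laminin chain, lowest at 0.871 (0.832 to 0.912), followed by Vcan at 0.955 (0.899 to 1.01) and Spp1 at 0.963 (0.958 to 0.968). No tested gene of these lists was 1.2-fold apart on log2(FPKM + 1). Fn1 and Reck, which lie under the filter, are given further below.

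Transcription factors known to act on these promoters, with the cytokine gene Tgfb1 in the same list, were evenly split. Of 16 tested, 8 were higher and 8 lower in DCA, with a median ratio of 0.998 and none 1.2-fold apart. Junb, a subunit of AP-1, had a ratio of 1.07 (1.03 to 1.12), Ets1 1.107 (1.06 to 1.15) and Nfkb1 1.07 (1.047 to 1.101). Cebpb was at 0.920 (0.877 to 0.964), Runx1 at 0.942 (0.907 to 0.978) and Egr1 at 0.945 (0.911 to 0.981). The reads of Ets1 did not come out whole with the annotated length, so its interval is approximate.

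**Figure D5:**
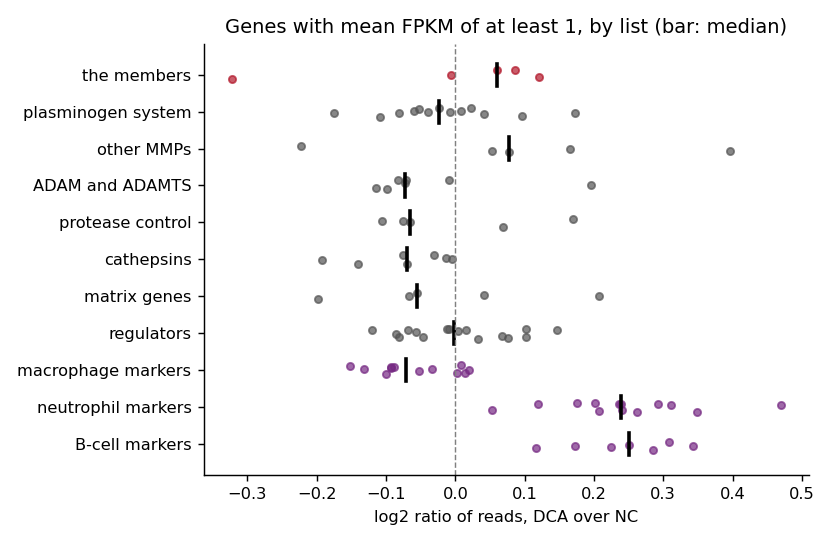
Log2 ratio of reads, DCA over NC, of each tested gene, by list, with a black bar at the median of each list. The medians of the cathepsins and the ADAM genes lie near that of the macrophage markers, left of 0. Adam19 and 4 macrophage markers lie right of 0, as do the tested neutrophil and B-cell markers. Plau is the leftmost point plotted.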

How the data were processed

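RNA-seq of mouse bone marrow-derived macrophages gave 1 DCA and 1 NC library, grouped by their treatment labels. The authors deposited FPKM for both. Per the submitters' processing notes, the build was GRCm38 and the tools included DESeq2 3.0, HTSeq 0.6.0, Picard 1.126 and STAR 2.5.0c. The notes state no role for these tools. The sources used here give neither gene lengths nor the strand setting.

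Reads were rebuilt from the deposited FPKM with summed transcript lengths of GENCODE vM21 (15548 identifiers matched). Of 11870 genes under 5000 reads, 11448 (96.4%) were whole to within 0.05 of a read in each library, where chance gives 1%. Differences were taken mainly in log2(FPKM + 1), which understates ratios of low genes. Genes whose mean FPKM was 1 or more were tested against 1.2-fold and 1.5-fold limits. This filter carries the length limit of the deposited FPKM and is not a filter on reads. Serpinb2 fell under it with a length-scaled level of 1.69 in DCA and 1.64 in NC. Fn1 fell under it with 2134 NC and 2711 DCA reads. Whether PCR copies were removed is not stated in the sources used here. Copies that remain are not independent molecules and make the counting intervals too narrow. Exon overlaps were taken by position alone. They are mentioned for only some of the named genes. Others, among them Thbs1, Spp1, Ctsb, Ctsl, Adam8, Adam19, Furin and Junb, also have exons that overlap another gene. The rebuilding of reads, the limits and the intervals were tested on simulated data, with Python 3.11.15, numpy 2.4.6, pandas 2.3.3 and scipy 1.17.1. Members, lists and limits were chosen with earlier results of these data known. Besides the members, each list's up to 3 highest and 3 lowest tested genes were named, and exceptions are marked. Pseudocounts, filters, scalings and overlaps were varied. Coordinates are 1-based.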

Additional observations from a re-analysis of the deposited data

How the results depend on the processing

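With 1 library per group no replicate could be left out. No paired analysis was possible because the groups share fewer than 2 replicate numbers. Each member kept the direction of its difference in every setting that gave it a value, and no value is given for Serpinb2, Mmp12 and Timp3 without genes with overlapping exons. Plau ranged from -0.34 to -0.29 and Timp2 from 0.105 to 0.12, while Timp3 ranged from 0.0088 to 0.94, the highest as the ratio of reads with no pseudocount. The count of members 1.2-fold apart was 0 at the 1.5-fold limit in place of 1. The count of all genes 1.2-fold apart, 273, was 527 with pseudocount 0.1, 71 with pseudocount 5, 462 with no filter, 84 with a mean FPKM of at least 5, 497 with each library rescaled to 1e6, where the pseudocount weighs less, 560 as the ratio of reads and 163 without genes with overlapping exons. The median of the protease control list, -0.0633, turned to 0.0 with no filter, 0.0027 with a mean FPKM of at least 5 and 0.0686 without overlapping genes. The ADAM median moved from -0.0689 to -0.0116 with no filter, and without overlapping genes the cathepsin median moved from -0.0697 to -0.013 and that of the matrix genes from -0.0341 to -0.1018. The cause was not tested. Depth limits Timp1, Timp3 and Mmp13.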

Other observations

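Some genes of the same systems lay under the filter of a mean FPKM of 1 and are given here as values, chosen after they were seen. Fn1, fibronectin, a matrix protein that plasmin and metalloproteinases cut, stood at 2134 NC and 2711 DCA reads, for a ratio of 1.33 (1.26 to 1.41), and its exons overlap another gene. Reck, a membrane-anchored inhibitor of metalloproteinases, had 127 NC and 213 DCA reads, for a ratio of 1.76 (1.40 to 2.20). Mmp11, stromelysin 3, had 95 NC and 140 DCA reads, for a ratio of 1.54 (1.18 to 2.02), and overlaps another gene. Mmp2, gelatinase A, was lower in DCA, with 151 NC and 88 DCA reads and a ratio of 0.610 (0.464 to 0.799). Serpine2, another inhibitor of urokinase, had 153 NC and 148 DCA reads, for a ratio of 1.01 (0.802 to 1.28).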
